A study of Mus musculus with 8 samples.

Results

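The Gadd45 family was described in rib chondrocytes, the cells that form cartilage, of mouse embryos. Its members, Gadd45a, Gadd45b and Gadd45g, were taken by name, with every probe set that the platform annotation maps to 1 of these symbols and to no other. This gave 3 genes of the 18193 with such a probe set, and 5 probe sets of 34945. No threshold on values was used, but the family was chosen by way of its signals between litters and between genotypes in earlier results of these arrays, so both are given as a description. The samples were FVB embryos at stage E18.5. The transgenic samples came from embryos with a Hoxc8 transgene and the control samples from embryos labelled wild type. Each of 4 litters, numbered 1 to 4 by the replicate number of the labels, gave 1 transgenic and 1 control sample, so that there were 4 arrays per genotype and 2 per litter. The promoter that drives the transgene, the number of embryos in a sample and their sexes are not given in the sources used here.

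The Gadd45 genes encode small acidic proteins without enzyme activity that work by binding other proteins. They bind and activate the kinase Map3k4, which passes the signal to p38 and Jnk kinases, and they also bind Pcna, cyclin B1 with Cdk1, and the inhibitor Cdkn1a, through which they slow the cell cycle. They take part in the removal of methyl groups from DNA together with the glycosylase Tdg. Gadd45a is a classical target of p53 after DNA damage, Gadd45b is induced by TGF-beta and NF-kB, and Gadd45g by cytokines. In the mouse growth plate Gadd45b is known as an inducer of the collagenase gene Mmp13 in hypertrophic chondrocytes. Their transcripts are short-lived and are among those that cells raise quickly under stress.

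Stretches of the promoters are shown because the 3 genes shared a litter pattern, described next, that was wider for Gadd45b and Gadd45g than for Gadd45a. They cover the 250 bases before the transcription start, 5′ to 3′ on the gene's strand, from RefSeq with build GRCm38.p6. Capitals mark matches to a TATA box, a CCAAT box, an octamer, an E-box or a p53 half-site. Gadd45a lies at chr6:67037408-67037657 on the minus strand, Gadd45b at chr10:80929841-80930090 on the plus strand and Gadd45g at chr13:51846425-51846674 on the plus strand.
Gadd45a: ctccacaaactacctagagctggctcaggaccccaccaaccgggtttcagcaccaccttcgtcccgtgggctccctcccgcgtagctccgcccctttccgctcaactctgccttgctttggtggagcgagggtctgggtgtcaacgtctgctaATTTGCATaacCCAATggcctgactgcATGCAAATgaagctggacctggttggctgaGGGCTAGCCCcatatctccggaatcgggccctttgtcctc
Gadd45b: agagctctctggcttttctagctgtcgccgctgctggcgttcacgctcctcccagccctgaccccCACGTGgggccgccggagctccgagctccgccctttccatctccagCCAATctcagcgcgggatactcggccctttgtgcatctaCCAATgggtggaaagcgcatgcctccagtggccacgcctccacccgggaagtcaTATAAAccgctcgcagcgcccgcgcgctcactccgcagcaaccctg
Gadd45g: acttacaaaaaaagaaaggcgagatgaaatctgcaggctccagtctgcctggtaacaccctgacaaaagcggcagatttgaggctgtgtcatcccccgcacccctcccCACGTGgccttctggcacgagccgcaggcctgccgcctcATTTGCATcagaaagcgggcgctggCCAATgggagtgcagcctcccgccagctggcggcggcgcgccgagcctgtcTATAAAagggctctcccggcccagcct
The motifs were searched on both strands, and each capital run is a match of letters only. A TATA box (TATAAA) stood 46 to 41 bases before the start of Gadd45b and 27 to 22 bases before that of Gadd45g, and it was not in the Gadd45a window. Of all 32841 windows of this length, 12.4% held it. An E-box (CACGTG), held by 6.02% of windows, was found once in Gadd45b and once in Gadd45g. A CCAAT box (CCAAT), held by 33.9% of windows, was found once in Gadd45a, 2 times in Gadd45b and once in Gadd45g. The octamer (ATTTGCAT), held by 1.60% of windows, was found 2 times in Gadd45a, on opposite strands around its CCAAT box, and once in Gadd45g. A p53 half-site, held by 7.13% of windows, was found once in Gadd45a. No match to a CRE (TGACGTCA), an AP-1 site (TGANTCA), an NF-kB site or a CArG box was in these 3 windows, and the shares of windows with a match were 1.55%, 6.75%, 3.90% and 1.47%. No matches overlapped.

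The arrays were comparable in level. Their median signals lay between 107 and 121, and the highest on the transgenic and on the control side was that of litter 2. Spearman correlations between arrays lay between 0.924 and 0.943. Hoxc8 had signals of 4096, 3400.0, 3810.4 and 4235 in transgenic samples of litters 1, 2, 3 and 4, against 4112, 3066, 3755 and 3143 in control samples, with an exact two-sided permutation p of 0.229, so this probe set checks the labels little. All 13 chondrocyte markers passed the signal filter, and their summed signal was 322839 to 383344 in transgenic samples and 310349 to 415898 in control samples. Skeletal muscle markers summed to 24786 to 35779.7 in transgenic and 25206 to 37296 in control samples. Neutrophil markers summed to 1724 to 3611 in transgenic and 1815 to 5545 in control samples, and epithelial markers, of which none of 3 passed the filter, to 151 to 167 in transgenic and 62.5 to 127 in control samples. In these bulk samples fewer cells of a type and less RNA per cell cannot be told apart.

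Between litters, all 5 Gadd45 probe sets were highest in litter 2 and lowest in litter 4, in transgenic and in control samples alike. Of all 22519 probe sets tested, 14.0% were highest in litter 2 in both genotypes, 14.0% were lowest in litter 4 in both, and 3.28% were both. The difference between these litters was above 3-fold for Gadd45g, between 2.29-fold and 2.88-fold for the bright Gadd45b probe sets and under 1.5-fold for Gadd45a. Signals are linear MAS5 values, and levels are compared only within a probe set.

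Gadd45g, the cytokine-induced member, known in the mouse also for its part in the onset of Sry expression in the gonad, had the widest range between litters. Its probe set 1453851_a_at gave signals of 2733, 5576, 2115 and 1696 in transgenic samples of litters 1, 2, 3 and 4, and of 2212, 5017, 1747 and 1499.7 in control samples. Litter 2 stood 2.04 times above the next transgenic sample and 2.27 times above the next control sample. The litters followed the order 2, 1, 3 and 4, with means of 5296 ± 395, 2473 ± 368, 1931 ± 260.3 and 1598 ± 139 (SD, n = 2 each). No neighbours in this order overlapped, so the litters were apart whichever genotype is taken. Litter 2 exceeded litter 4 by 3.29 times in transgenic and 3.35 times in control samples.

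Gadd45b, the member induced by TGF-beta and NF-kB, was read by 3 probe sets, 2 of them bright. The first, 1449773_s_at, gave 5229.7, 6982, 4639 and 3053 in transgenic samples of litters 1, 2, 3 and 4, and 3995, 8059, 4206 and 2794 in control samples. The second, 1450971_at, gave 4340.5, 6327, 3507 and 2553 in transgenic samples of the same litters, and 3446, 6745, 2944 and 2541 in control samples. On both, litter 2 was above and litter 4 below every sample of the other litters, while litters 1 and 3 overlapped. Litter 2 exceeded litter 4 by 2.29 times (transgenic) and 2.88 times (control) on the first probe set, and by 2.48 and 2.65 times on the second. The bright probe sets thus gave the same order of litters, which was 2, 1, 3 and 4.

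The dim Gadd45b probe set, 1420197_at, had a mean signal of 122, close to the filter value of 110. It gave 113, 195, 107 and 95.3 in transgenic samples of litters 1, 2, 3 and 4, and 121, 140.1, 137 and 62.4 in control samples. Litter 2 was highest here too, but its control sample stood only 1.02 times above that of litter 3. Its order of litters was 2, 3, 1 and 4, and litters 3 and 1 overlapped.

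Gadd45a, the DNA damage-inducible member, varied less. Its probe set 1449519_at gave 326, 420.0, 388 and 285 in transgenic samples of litters 1, 2, 3 and 4, and 325, 367, 263 and 259 in control samples. The litter means were 394 ± 37.3 for litter 2, 325 ± 1.20 for litter 1, 325 ± 88.2 for litter 3 and 272 ± 18.0 for litter 4 (SD, n = 2 each). Litter 3 overlapped with each of the others because its transgenic sample was near the top and its control sample near the bottom. Litter 2 exceeded litter 4 by 1.48 times in transgenic and 1.42 times in control samples.

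**Figure D1:**
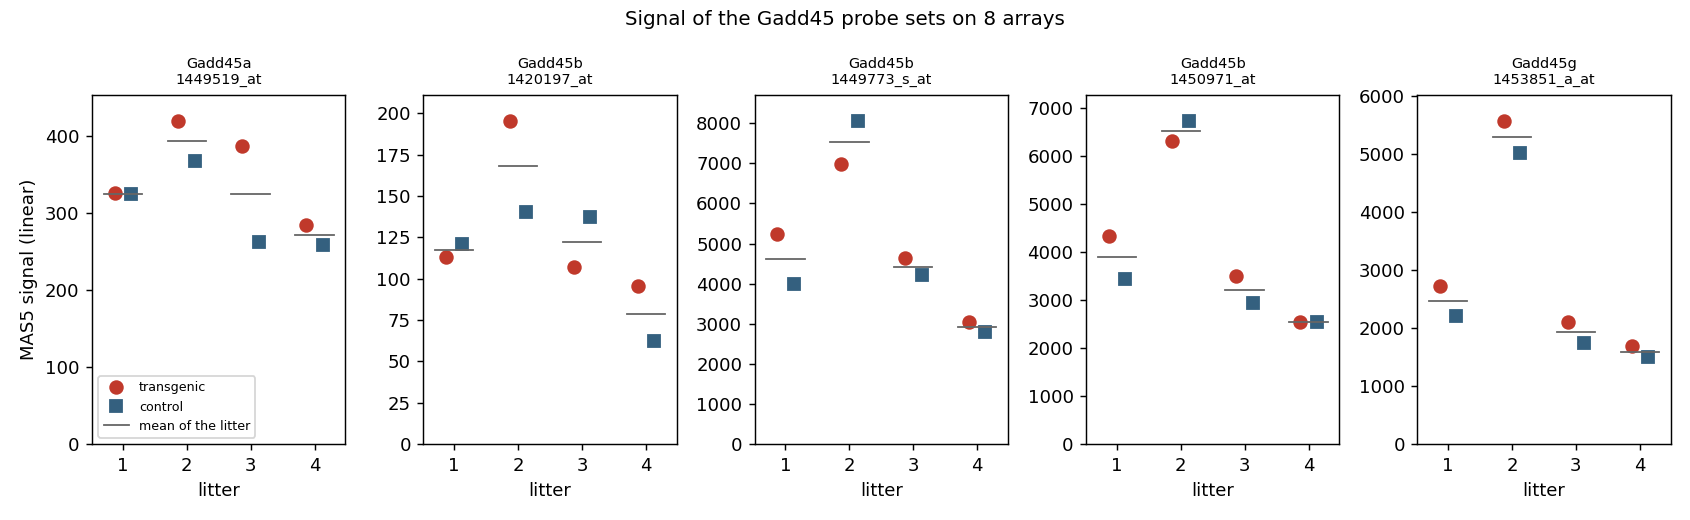
Linear MAS5 signal (vertical axes, from 0) of the 5 Gadd45 probe sets in litters 1, 2, 3 and 4 (horizontal axes), with circles for transgenic samples, squares for control samples and a line for the litter mean. Litter 2 is the highest and litter 4 the lowest in both genotypes for every probe set, and Gadd45g reaches 5576 and 5017 in litter 2.

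On the scale of log2(signal + 22.2), used for all fits, litter 2 stood above the mean of the other litters by 1.42 for Gadd45g, 0.94 and 1.04 for the bright Gadd45b probe sets, by 0.58 for the dim one and by 0.34 for Gadd45a. The value of the dim probe set was 0.37 without the transgenic and 0.79 without the control sample of litter 2. The median of this difference over all tested probe sets was 0.00. The value of Gadd45g was above that of 99.9% of all tested probe sets. Those of the bright Gadd45b probe sets were above 99.4% and 99.6%, that of the dim one above 96.1% and that of Gadd45a above 87.5%. Nothing is read from these shares, since litter values were known when the family was picked. Litter 4 stood below the mean of the others, with differences of -0.87 for Gadd45g, -0.86 and -0.76 for the bright Gadd45b probe sets, -0.64 for the dim one and -0.32 for Gadd45a.

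By limma's moderated F-test of the litters, fitted beside genotype, 2027 of the 22519 probe sets, or 9.0%, passed an adjusted p of 0.05, and 3 of the 5 Gadd45 probe sets did, both bright ones of Gadd45b and that of Gadd45g. Since the family was picked with litter values known, nothing is read from this count. The calls rest on the variance model, which had 3 residual degrees of freedom. Without an intensity trend of the variance limma called 0 of the 22519 probe sets, with 4915 at an unadjusted p under 0.05, 4 Gadd45 probe sets among them. The labels give a litter only a number and name no other step that its samples shared.

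Other measures moved with the litters. The 5-prime to 3-prime signal ratio of Gapdh, a sign of RNA integrity, was lowest in litter 4, at 1.14 in the transgenic and 1.17 in the control sample, against 1.29 to 1.36 in the other transgenic and 1.26 to 1.35 in the other control samples. That of beta-actin was also lowest there, at 0.475 in the transgenic and 0.512 in the control sample, against 0.591 to 0.647 and 0.590 to 0.641 in the other samples of each genotype. The summed chondrocyte markers were highest in litter 2, with 383344 in the transgenic and 415898 in the control sample, and lowest in litter 4, with 322839 in the transgenic and 310349 in the control sample. The summed neutrophil markers ran the other way, with 1724 in the transgenic and 1815 in the control sample of litter 2 and 3611 in the transgenic and 5545 in the control sample of litter 4. The summed skeletal muscle markers were also highest in litter 4, at 35779.7 in the transgenic and 37296 in the control sample. They were 24786 in the transgenic and 25617.5 in the control sample of litter 2, and 26203 and 25206 in those of litter 3. Litter 1 was nearly as high as litter 4, at 33892 in the transgenic and 34888 in the control sample. Bright genes weigh most in these sums, and not all members followed them. Of 13 chondrocyte markers, 8 were highest in litter 2 and 6 lowest in litter 4 in both genotypes. Hapln1 stood at -0.06 log2 in litter 2 and 0.24 in litter 4 against the other litters. In litter 2 the muscle genes Tnnt3, Myog and Casq2 stood at 0.04, 0.21 and 0.10, and Myh3 at -0.06 in litter 4. These genes were picked after their values were seen. Other marker sums followed other orders. Osteoblast markers averaged 1136, 1512, 1664 and 1213 in litters 1, 2, 3 and 4, and erythroid markers 4316, 3787, 2498 and 4344. Called between litters were 4 of 7 muscle, 5 of 13 chondrocyte, 2 of 4 neutrophil and 0 of 4 endothelial markers tested. So were 1 of 2 erythroid, 1 of 4 macrophage, 1 of 4 fibroblast and perichondrium and 0 of 5 osteoblast markers. Over all genes tested 9.91% were called. The summed endothelial markers were lowest in litter 4, at 639 in the transgenic and 607 in the control sample, against 806 to 961 in the other transgenic and 811 to 1086 in the other control samples. The part of these measures in the Gadd45 values was not tested.

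Gene groups around the family were set beside it, with each gene read by its probe set of the highest mean signal. Over all 10989 genes tested, 9.91% were called between litters and 11.7% were highest in litter 2 in both genotypes. Among partners of Gadd45 proteins and the kinases downstream, 10 of 14 genes were tested and 1, Cdkn1a, was called. Of the 10, 2 were highest in litter 2 in both genotypes, Cdkn1a and the Jnk kinase gene Mapk8. The median difference of litter 2 from the others was 0.02 log2 in this group and -0.03 over all genes. Map3k4, the kinase that Gadd45 proteins activate, stood at 0.18, the p38 kinase gene Mapk14 at 0.06, the mitotic kinase gene Cdk1 at 0.05 and Pcna, the sliding clamp of DNA replication, at 0.00, none of them called (limma adjusted p between 0.26 and 0.78). Mapk8, picked after its value was seen, stood at 0.30 and was not called (limma adjusted p = 0.15). Map2k7, Ccnb1, Tdg and Trp53 were not analysed here.

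Cdkn1a, the p21 inhibitor of cyclin-dependent kinases, had signals of 1354, 1497, 1425 and 604 in transgenic samples of litters 1, 2, 3 and 4, and of 1266, 1345, 954 and 650.3 in control samples. On this probe set it was, like the Gadd45 genes, highest in litter 2 and lowest in litter 4 in both genotypes. Of its 2 probe sets tested, only 1 was highest in litter 2 in both genotypes. The main step of the probe set shown was the low level in litter 4, at -1.02 log2 from the other litters against 0.51 for litter 2. Of 20 other p53 targets tested, Cdkn1a included, 4 were called between litters, namely Cdkn1a, Btg2, Perp and Plk2, and 7 were highest in litter 2 in both genotypes. The median difference of litter 2 in this group was -0.11 log2. Mdm2, the ubiquitin ligase of p53, stood at 0.40 and was not called (limma adjusted p = 0.079), with signals of 1428, 1715, 1165 and 1222 in transgenic and 1171, 1529, 1163 and 1202 in control samples of litters 1, 2, 3 and 4. Without litter 2, 1 of these 20 genes was called, against 3.02% of all genes.

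Factors known to control Gadd45 genes gave 8 calls between litters among 14 genes tested, and 3 without litter 2, against 9.91% and 3.02% of all genes. The called genes were Atf3, Atf4, Cebpb, Ddit3, Egr1, Foxo1, Foxo3 and Myc. Of the 14, 5 were highest in litter 2 in both genotypes, against 11.7% of all genes, and the median litter 2 difference was 0.25 log2. Foxo1 and Foxo3 were not among these 5. They stood at 0.23 and 0.21 in litter 2 and at -0.42 and -0.41 in litter 4. Litter 2 differed from the others by 1.20 log2 for Atf3 and 0.51 for Atf4, both of the stress response, by 0.69 for Cebpb, a C/EBP factor that acts in hypertrophic chondrocytes, and by 0.34 for Egr1, an early growth response factor. Ddit3, another gene induced by DNA damage and stress, stood at 1.49, above Gadd45g, and was named after its value was seen. Egr1 followed another order, with its highest transgenic signal, 18698, in litter 3 and only 17870.2 in litter 2. In the control samples Egr1 was highest in litter 2, at 18230.3. Smad2, Smad3, Smad4, Rela, Brca1 and Foxo4 of this group were not called. Their litter 2 differences were -0.04, 0.02, -0.23, 0.27, -0.11 and 0.10 log2.

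Immediate early genes and genes that rise when tissue is dissociated formed the group most often called. Of 30 tested, 26 were called between litters and 21 were highest in litter 2 in both genotypes. All 30 had a positive difference for litter 2, from 0.10 to 1.20 log2 with a median of 0.63, and all 30 had a negative one for litter 4. Without litter 2, 18 of the 30 were called, against 3.02% of all genes. This list, like the others, was chosen with earlier results of these data known, so nothing is read from its counts. Fos, an AP-1 subunit gene, had signals of 29374, 33786, 30730.4 and 26210 in transgenic samples of litters 1, 2, 3 and 4, and of 30756, 36154, 29871 and 25438 in control samples, so litter 2 was highest and litter 4 lowest in both genotypes. The difference of litter 2 was 0.29 log2 for Fos, 1.00 for the cytokine gene Il6, 1.02 for the chemokine gene Cxcl1 and 0.27 for the NF-kB inhibitor gene Nfkbia. Of these 4, Fos, Il6 and Cxcl1 were called and Nfkbia was not (limma adjusted p = 0.132). Among probe sets tested, 2 of 3 for Cxcl1 and 4 of 5 for Nfkbia were highest in litter 2 in both genotypes. These genes include Atf3, Btg2, Cebpb, Egr1 and Myc of the groups above, and their part in the Gadd45 pattern was not tested.

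Of the hypertrophic cartilage genes around Gadd45b, 2 of 7 tested were highest in litter 2 in both genotypes. Of the 7, 4 were called between litters (Col10a1, Cebpb, Jund and Ihh), and 1 without litter 2, against 9.91% and 3.02% of all genes. Litter 2 differed from the others by 0.69 log2 for Cebpb and 0.64 for Jund, but by -0.49 for Ihh. Cebpb and Jund are also among the immediate early and dissociation genes. Mmp13, the collagenase gene linked to Gadd45b, had signals of 169, 330.2, 146 and 113 in transgenic samples of litters 1, 2, 3 and 4, and of 73.1, 154, 173.5 and 124 in control samples. Its transgenic samples followed the order of Gadd45g, its control samples did not, and it was not called (limma adjusted p = 0.253). Col10a1, the collagen of hypertrophic cartilage, had 8504, 8139, 6977 and 5689.5 in transgenic and 7707, 9647, 5711 and 5949 in control samples of these litters. Its difference for litter 2 was 0.41 log2, with the transgenic sample of litter 1 above that of litter 2.

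**Figure D2:**
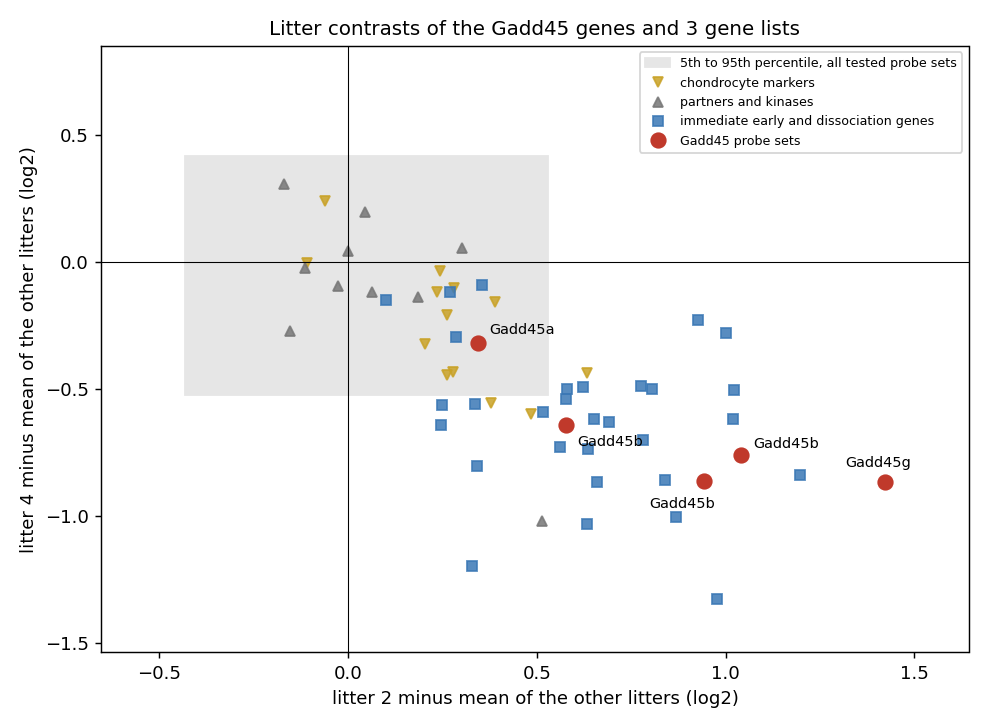
Difference of litter 2 (horizontal axis) and of litter 4 (vertical axis) from the mean of the other litters, log2 scale, for the Gadd45 probe sets (circles), immediate early and dissociation genes (squares), partners and kinases (upward triangles) and chondrocyte markers (downward triangles). The grey box spans the 5th to 95th percentiles of all tested probe sets, from -0.43 to 0.53 and from -0.52 to 0.42. Gadd45b and Gadd45g lie outside it at the lower right and Gadd45a lies inside.

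The genes most like each member over the 8 arrays were ranked by Pearson's r of the log2 values among all genes tested, as a description with no test, because the arrays come from 4 litters and are not independent. For Gadd45g they were Atf3 (0.99), the sterol demethylase gene Cyp51 (0.99) and the kinase gene Map4k4 (0.99), and 128 genes reached 0.9. For Gadd45b, by its brightest probe set, they were Sfxn4 (0.98), Bgn (0.98) and Myc (0.98), and 106 genes reached 0.9. Sfxn4 encodes a mitochondrial protein and Bgn a small proteoglycan of the matrix. For Gadd45a they were Cxxc5 (0.96), Odc1, the entry enzyme of polyamine synthesis (0.95), and the sorting nexin gene Snx24 (0.94), and 19 genes reached 0.9. Among the members the value was 0.94 for Gadd45b with Gadd45g, 0.81 for Gadd45a with Gadd45g and 0.79 for Gadd45a with Gadd45b. No gene was among the 3 likest of more than 1 member.

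Likeness of order did not mean likeness of size. Atf3 had signals of 4569, 8368, 4127 and 2982 in transgenic samples of litters 1, 2, 3 and 4, and of 4047, 7713, 3082 and 2574 in control samples, with a litter 2 difference of 1.20 log2, below the 1.42 of Gadd45g. Myc had 2363, 3064, 2203 and 1259 in transgenic and 2052, 3336, 1822 and 1131 in control samples, with 0.87 for litter 2 and -1.004 for litter 4. Map4k4, Sfxn4 and Bgn had litter means in the same order, 2, 1, 3 and 4, with differences of only 0.19, 0.26 and 0.26 for litter 2. For Bgn the means of litters 1 and 3 were nearly level, at 36396 and 36376, and among control samples litter 3 was above litter 1. Of 4 Map4k4 probe sets tested, 2 were highest in litter 2 in both genotypes, as were 2 of 3 for Cyp51 and 1 of 2 for Cxxc5.

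**Figure D3:**
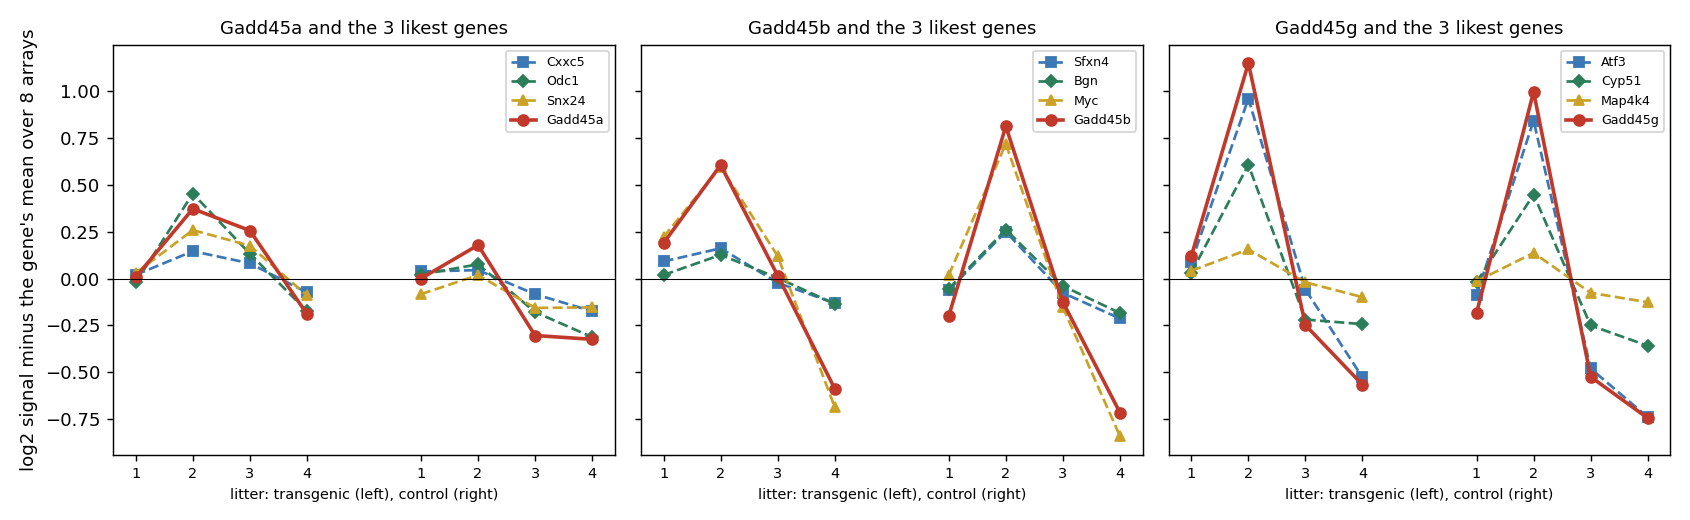
Log2 signal of each Gadd45 gene (circles, solid lines) and its 3 likest genes (dashed lines), minus the gene's own mean over the 8 arrays, in transgenic samples (left of each panel) and control samples (right) of litters 1, 2, 3 and 4. Atf3 runs close to Gadd45g and below it in litter 2, while Map4k4 follows the same order at a small range.

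Between genotypes, no Gadd45 difference passed the threshold. No Gadd45 probe set was called, 0 of 5, where limma called 0% of all 22519 probe sets and 246 had an unadjusted p under 0.05. The ranges of transgenic and control samples overlapped for all 5, where 0.453% of all probe sets had every transgenic sample above every control sample. The fitted differences, transgenic minus control on the log2(signal + 22.2) scale, were all positive, from 0.11 to 0.23.

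Gadd45g averaged 3030.1 ± 1750 in transgenic and 2619 ± 1626 in control samples (SD, n = 4 each). The fitted difference was 0.23 log2 (SE 0.38, limma adjusted p = 0.9999), and its 95% interval, -0.59 to 1.04, corresponds to 0.666-fold up to 2.05-fold. Most of this spread lay between litters. Within litters the transgenic sample was 1.24, 1.11, 1.21 and 1.13 times the control sample in litters 1, 2, 3 and 4, so it was higher in 4 of 4. Blocking on litter gave an SE of 0.07 and an interval from 0.07 to 0.38, and the probe set was still not called (limma adjusted p = 0.9998). Without the transgenic sample of litter 2 the unblocked difference was -0.12.

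Gadd45a averaged 355 ± 60.8 in transgenic and 303 ± 52.1 in control samples (SD, n = 4 each), a difference of 0.21 log2 (SE 0.17, 95% interval from -0.15 to 0.57, limma adjusted p = 0.9999). The transgenic sample was 1.01, 1.14, 1.47 and 1.10 times the control sample in litters 1, 2, 3 and 4. It too was higher in 4 of 4 litters, by the most in litter 3 and by next to nothing in litter 1. Among all probe sets tested 5.20% were higher in transgenic samples of all 4 litters, and since this contrast was known when the family was picked, nothing is read from the 2 of 5 seen here. Blocking on litter gave an SE of 0.14 and an interval that ran from -0.09 to 0.51.

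Gadd45b differed in sign between litters. On the first bright probe set transgenic samples averaged 4976 ± 1623 and control samples 4764 ± 2284 (SD, n = 4 each), a difference of 0.11 log2 (SE 0.29, 95% interval from -0.51 to 0.73). On the second, transgenic samples averaged 4182 ± 1606 and control samples 3919 ± 1920.3, a difference of 0.12 log2 (SE 0.29, 95% interval from -0.51 to 0.76). On both, the transgenic sample was lower in litter 2, at 0.866 and 0.938 times the control sample, and higher in the other litters, by up to 1.31 and 1.26 times in litter 1. The dim probe set had ratios of 0.938, 1.39, 0.782 and 1.53 in litters 1, 2, 3 and 4, the opposite sign in litters 1, 2 and 3. With litter as a block the intervals of the bright probe sets ran from -0.08 to 0.30 and from -0.06 to 0.30. Without the transgenic sample of litter 2 the unblocked differences were -0.07 and -0.10, and without the control sample of litter 4 they were -0.11 and -0.05.

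**Figure D4:**
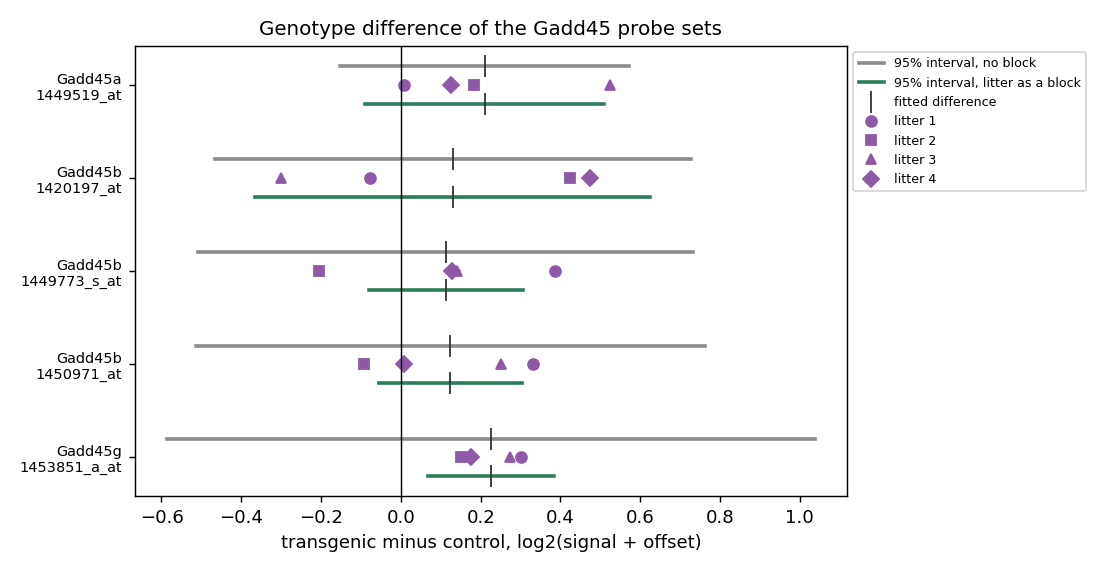
Transgenic minus control difference on the log2(signal + offset) scale (horizontal axis) for the 5 Gadd45 probe sets, with 1 symbol per litter, the fitted difference as a tick, and its 95% interval without a block (upper bar) and with litter as a block (lower bar). All 4 symbols of Gadd45a and of Gadd45g lie to the right of 0, and those of Gadd45b lie on both sides.

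The gene groups gave no calls between genotypes either. Of the 14 factors known to control Gadd45 genes 0 were called and 11 had a transgenic level above control, the median being 0.08 log2. Of the 10 partners and kinases 0 were called and 4 were positive, with a median of -0.01. Of the 20 p53 targets 0 were called and 13 were positive, with a median of 0.08, and of the 7 hypertrophic genes 0 were called and 4 were positive, with a median of 0.03. Of the 30 immediate early and dissociation genes 0 were called and 24 were positive, with a median of 0.07. Over all 10989 genes tested 5567 were positive, with a median of 0.00. Among named genes, Cdkn1a stood at 0.18, Mdm2 at 0.12 with the other of its 2 probe sets of opposite sign, Atf3 at 0.23, Mmp13 at 0.42 and Map3k4 at -0.06 log2, the last with 3 of its 4 probe sets of the opposite sign. Il6 had the largest genotype difference of the named genes, 0.62 log2 with a 95% interval from 0.001 to 1.23, was higher in transgenic samples of 4 of 4 litters and was not called (limma adjusted p = 0.9999). Cxcl1 stood at 0.41 log2 and was also higher in 4 of 4 litters.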

How the data were processed

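Total RNA of rib chondrocytes, released from rib cages by collagenase and trypsin and labelled with biotin, was read on 8 Affymetrix arrays. Each deposited value is the intensity of 1 probe set on 1 array, not on a log scale. MAS5 is named in the submitters' processing notes without a version. The deposited signals had the same trimmed mean of 500.003 on every array (2% trimmed at each end), so no further scaling was applied. Fits used log2(signal + 22.2). The offset is the 20th percentile of all values and understates changes of dim probe sets. Control probe sets and those whose signal averaged under 110, the median, were left out, so that 22519 were tested.

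Genotypes were compared with limma 3.58.1 in R 4.3.3 (lmFit, eBayes with intensity trend, two-sided, no covariates), and litters with its moderated F-test next to a genotype term, with Benjamini-Hochberg adjustment over all probe sets tested and a threshold of 0.05. The steps were tested on simulated data, where only probe sets changed on purpose differed between litters or genotypes. That check therefore does not show how the unblocked genotype fit performs with the litter differences seen here. The labels tie each replicate number to a litter, which pairs the samples. Deviations of same-litter arrays from their genotype means correlated at 0.0251, 0.434, 0.376 and 0.379 for litters 1, 2, 3 and 4, so the pairing was not seen for litter 1. Alternatives were litter as a block, other offsets, filters, scalings, variance models and array weights, and leaving out arrays or litters. The number of arrays limits the precision, and samples of 1 litter may share technical steps.

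The members and all gene lists were chosen with earlier results of these data known. Named genes were the members, Hoxc8, 21 list members set by name and the 3 genes most like each member. Gene names come from a platform annotation of 2016.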

Additional observations from a re-analysis of the deposited data

Results flagged for a closer look

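In 62 groups of 4 samples of 1 genotype, for the Gadd45 probe sets and the named genes, 7 samples lay so far from the rest that the gap exceeded Dixon's 95% critical value, where chance gives about 3.1. None of them was a Gadd45 value. Il6 was high in litter 2, at 461 in the transgenic (next 263) and 371 in the control sample (next 156). Cxcl1 was high in the control sample of litter 2, at 1796 (next 826), and so was Mdm2, at 1529 (next 1202). The other 3 were low values of litter 4: Cdkn1a at 604 (next 1354) and Mapk14 at 1182 (next 1395) in the transgenic sample, and Foxo3 at 2062 (next 2875) in the control sample.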

How the results depend on the processing

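Between genotypes, 0 probe sets passed the threshold in any of the 22 alternatives, and the smallest adjusted p of a Gadd45 probe set was 0.9998 (limma). The replicate block, which fits the pairing by litter, changed no call: 0 probe sets passed, 752 had an unadjusted p under 0.05 and the smallest adjusted p was 0.989. The Gadd45 differences kept their sign in all alternatives except 2. Without control replicate 4 (litter 4) they were -0.088 for the dim and -0.11 and -0.05 for the first and second bright probe set of Gadd45b. Without transgenic replicate 2 (litter 2) they were -0.06, -0.07 and -0.10 for these and -0.12 for Gadd45g, with no block in the fit. By construction those fits hold that litter in 1 genotype only. With an array or litter left out, the differences ranged from 0.11 to 0.30 for Gadd45a, -0.088 to 0.27 for the dim and -0.11 to 0.40 and -0.10 to 0.42 for the bright probe sets of Gadd45b, and -0.12 to 0.59 for Gadd45g.

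Between litters, 2027 probe sets passed as reported. The number was 995 without a filter, 0 without an intensity trend, and 546 to 3047 with an array or litter left out, lowest without control replicate 2 and highest without litter 1. It was 786 without control replicate 3, 713 without transgenic replicate 2, 970 without transgenic replicate 3, and 562, 1046 and 1118 without litters 2, 3 and 4. The number of Gadd45 probe sets called, 3 as reported, was 0 without the trend and 2 or 3 with an array or litter left out. The cause was not tested. Of the 9 likest genes, 3 were also found by Spearman's rho and 5 after quantile normalization. After quantile normalization or median centring, both added after seeing the data, 4 of 5 Gadd45 probe sets were highest in litter 2 and lowest in litter 4 in both genotypes. Over other offsets, scalings and left-out arrays the litter 2 difference ranged from 1.34 to 1.50 log2 for Gadd45g, from 0.84 to 1.05 and from 0.96 to 1.10 for the bright and from 0.37 to 0.79 for the dim probe sets of Gadd45b, and from 0.25 to 0.44 for Gadd45a. With 1 sample per litter and genotype, no difference between litters in the effect of genotype could be tested.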

Other observations

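Perp and Tnfrsf10b, p53 targets outside the family, differed between litters by over 1 log2 and were picked after their values were seen. Perp, a desmosome gene of epithelia that p53 induces, differed by -1.26 log2 in litter 2 and by 0.62 in litter 4 from the other litters. The death receptor gene Tnfrsf10b differed by 1.45 in litter 2 and by -0.73 in litter 4, was not lowest in litter 4 in both genotypes, and was not called (limma adjusted p = 0.056).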
